A study of Mus musculus with 8 samples.

Results

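Hk1, Aldoc, Eno1 and Pkm are enzymes of glycolysis, given here in pathway order, and Ndufa4 is a nuclear-encoded subunit of the respiratory chain. These 5 genes of the 1802 listed in the authors' deposited table were chosen by gene symbol, with the log difference and the p-value of each in that table already known. Those values are therefore a description of the members and not a test. They compare cells of mouse retina from 5 libraries labelled ABCA1KO (KO) with cells from 3 libraries labelled Control (WT). ABCA1 exports cholesterol and phospholipid from cells, and the title of the series names astrocytes and optic neuropathy. The labels name no promoter, Cre line, strain or age of mouse, and they do not say in which cells ABCA1 was deleted or whether each library came from its own animal. Cells were released with papain and sequenced from the 3′ end of their transcripts in droplets.

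Glycolysis breaks glucose down to pyruvate in the cytosol, and the respiratory chain oxidises its products in mitochondria. Photoreceptors are known for a high rate of glycolysis with release of lactate even when oxygen is plentiful, and they hold a dense pack of mitochondria in their inner segments. Müller glia, which span the retina from its inner to its outer side, exchange glucose and lactate with them.

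Of the members, Ndufa4, Pkm and Eno1 were called lower in KO per the authors' deposited table, with log differences of -0.22, -0.12 and -0.084. Hk1 and Aldoc were called higher there, with log differences of 0.018 and 0.0027. A log difference is the KO value minus the WT value on a natural-log scale, apparently of batch-integrated values, so it is not a fold change of expression. For all 5 members, values above 0 were more frequent among KO cells than among WT cells per the authors' deposited table, also the 3 that were called lower. A call is an adjusted p under 0.05 per the authors' deposited table, which 93.2% of all listed genes passed, 69.1% as higher in KO and 24.1% as lower. The rule used this contrast, so nothing is read from the 2 higher and 3 lower calls of the members. All 5 also passed 0.001, as did 90.1% of all listed genes of the authors' deposited table, and every listed gene (100%) had a raw p under 0.01. Read against the median gene, 1 member (Hk1) was called above it and 4 below, beside 45.9% and 47.3% of all listed genes of the authors' deposited table.

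The authors' deposited table holds 1 value per genotype, with no value per library, no error, no number of cells and no depth, so the spread between libraries is unknown for every value. It pools the cells of all types, so a change in the mix of cell types and a change within a cell type cannot be told apart. Abca1 itself, at 0.029 per the authors' deposited table, was called higher in KO and not lower. Tags from the 3′ end check a deletion only where they lie in the deleted part, so the genotype labels were not checked by this value.

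The members lie on 5 chromosomes. Stretches upstream of annotated starts are shown first to give the sequence before a start of each gene. For Hk1 and Pkm both the printed stretch and its start lie inside the span of the gene given below. For Aldoc and Ndufa4 the start also lies inside that span, but the stretch, 105 and 47 bases before it, lies outside. The Hk1 stretch outside the gene, at 62379909 to 62380158, had 0 matches and is not printed. Each stretch was searched for letters that hypoxia-inducible factor and the photoreceptor homeobox factor CRX are known to bind. Sequences are from RefSeq (GRCm38.p6), 5′ to 3′ on the gene's own strand, cut to the part of the 250 bases before a start that lies outside annotated UTRs. Capitals mark ACGTG or GCGTG, the core of the hypoxia response element, and TAATCC, a core of CRX sites, on either strand. Where a gene had more than 1 start with at least 50 such bases, the stretch with more matches is printed, and for Aldoc, with 1 match in each, the one before the upstream start.
Hk1, chr10:62340543-62340671, minus strand: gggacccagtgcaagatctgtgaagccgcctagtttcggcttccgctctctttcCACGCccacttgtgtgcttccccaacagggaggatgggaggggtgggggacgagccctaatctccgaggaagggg
Aldoc, chr11:78322823-78322967, plus strand: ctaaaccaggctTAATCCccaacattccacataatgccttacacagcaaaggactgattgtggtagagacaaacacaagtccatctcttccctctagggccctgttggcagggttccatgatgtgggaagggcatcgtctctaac
Eno1, chr4:150236458-150236707, plus strand: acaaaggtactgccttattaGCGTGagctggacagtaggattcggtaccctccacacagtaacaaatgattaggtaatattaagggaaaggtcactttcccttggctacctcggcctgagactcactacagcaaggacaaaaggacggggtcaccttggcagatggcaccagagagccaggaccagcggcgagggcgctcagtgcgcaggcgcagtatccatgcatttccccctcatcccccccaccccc
Pkm, chr9:59656977-59657086, plus strand: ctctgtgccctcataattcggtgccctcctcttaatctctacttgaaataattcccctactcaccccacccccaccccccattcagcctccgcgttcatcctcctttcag
Ndufa4, chr6:11907498-11907700, minus strand: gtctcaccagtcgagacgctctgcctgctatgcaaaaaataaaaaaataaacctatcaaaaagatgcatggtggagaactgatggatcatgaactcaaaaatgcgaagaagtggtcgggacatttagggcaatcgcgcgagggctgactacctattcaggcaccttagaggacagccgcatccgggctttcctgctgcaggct

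Over the full 250 bases before each RefSeq start, 10 windows in all for the 5 members, 4 members had the hypoxia core before a start. Hk1 had 0 and 3 matches before its 2 starts, Aldoc had 1 before each of its 2 starts, and Eno1 had 1, 2 and 2 before its 3 starts. Pkm had 0 and 1 matches before its 2 starts, and Ndufa4 had 0 before its 1 start. Of all 32851 RefSeq windows of that length, 38.6% hold at least 1 hypoxia core, so a match is common. That share is per window and cannot be set against the count of 4 members, each of which had more than 1 start. The Eno1 windows with 2 matches overlap each other. The CRX core was present before 1 of the Aldoc starts and before no start of the other members, against 6.25% of all windows. Matches that overlap were counted separately, ACGTG also lies within the E-box CACGTG, and a match is a run of letters and not a binding site.

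Hk1 encodes hexokinase 1, which traps glucose in the cell at the first step of glycolysis and can sit on the outer mitochondrial membrane. The gene spans 62268855 to 62379908 on the minus strand of chromosome 10 (GRCm38) and overlaps the antisense gene Hk1os. Whether the authors' counting used strand is not given in the sources used here. Per the authors' deposited table, 53.6% of WT cells and 74.1% of KO cells had a value above 0 for Hk1. That gain of 20.5 percentage points was close to the median gain of 20.8 over all listed genes of the authors' deposited table. The log difference of 0.018 (adjusted p = 2.13e-27) placed Hk1 at rank 699 from the highest of 1802 genes per the authors' deposited table. Hk1 was thus near the middle of the table on both measures.

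Aldoc encodes aldolase C, which splits the phosphorylated sugar into its triose parts further along the pathway and is the form typical of brain and retina, with high levels in glia. It spans 78322968 to 78327781 on the plus strand of chromosome 11. A value above 0 for Aldoc was listed in 66.2% of WT cells and 83.1% of KO cells per the authors' deposited table, a gain of 16.9 points. Its log difference of 0.0027 (adjusted p = 6.65e-11) was above 0 but under the median of 0.010 over all listed genes of the authors' deposited table. Against this median gene, Aldoc stood at -0.0074, so its direction turns with the reference chosen. It ranked at 1203 from the highest.

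Eno1 encodes alpha-enolase, which makes phosphoenolpyruvate at the step before the last. It spans 150236721 to 150248879 on the plus strand of chromosome 4. For Eno1 the authors' deposited table gave a value above 0 in 72% of WT cells and 81.3% of KO cells, a gain of 9.3 points. Its log difference of -0.084 (adjusted p = 4.40e-18) was the 26th from the lowest of the authors' deposited table. The value is uncertain because of a near copy of the gene. The last 300 bases of its principal transcript, where 3′ tags fall, matched those of Eno1b, an intronless copy on chromosome 18, at 99.7% identity over 297 bases. Reads of these genes could be divided between them or discarded, and Eno1b was not listed. The other 4 members had 0 other annotated genes with a match of at least 90 bases at 95% identity or more in that stretch.

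Pkm encodes pyruvate kinase M, which makes pyruvate and ATP at the final step, in an M1 and an M2 form that differ by an internal exon. Tags from the 3′ end do not separate the forms. The gene spans 59656368 to 59679375 on the plus strand of chromosome 9 and overlaps 1 other annotated gene, Gm49759, on the same strand, from which strand does not separate its reads. Pkm had a value above 0 in 90.4% of WT cells and 94.3% of KO cells per the authors' deposited table, a gain of 3.9 points. With a log difference of -0.12 (adjusted p = 5.07e-52) it was the 17th from the lowest per the authors' deposited table. Only 14 listed genes had a larger share of WT cells above 0 than Pkm per the authors' deposited table.

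Ndufa4 was named as a subunit of complex I of the respiratory chain and was later assigned to complex IV, cytochrome c oxidase. It spans 11900292 to 11907497 on the minus strand of chromosome 6. The authors' deposited table gave Ndufa4 a value above 0 in 89.7% of WT cells and 91.1% of KO cells, a gain of 1.4 points. Its log difference of -0.22 (adjusted p = 2.47e-193) was the 5th from the lowest of all 1802 genes of the authors' deposited table. Only 59 listed genes had a smaller gain in share than Ndufa4 per the authors' deposited table. It therefore had both the lowest log difference and the smallest gain among the members.

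**Figure D1:**
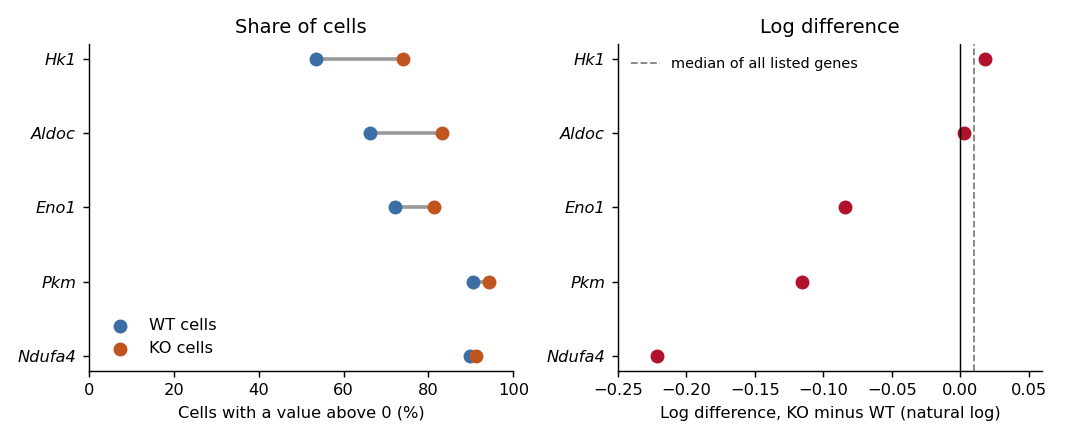
Left, the share of WT and KO cells with a value above 0 (%) for each member. Right, the log difference (KO minus WT, natural log) of each member, with the median of all listed genes as a dashed line. The share was larger in KO for all 5 members, by 20.5 points for Hk1 down to 1.4 for Ndufa4, while the log difference was below 0 for Eno1, Pkm and Ndufa4.

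A larger share together with a lower log difference was the usual pattern of genes below 0 and not one of these members alone. Of 466 genes with a log difference below 0 per the authors' deposited table, 454 (97.4%) had values above 0 in more of the KO cells. The gain in points also shrinks as the WT share nears 100%. Counted instead as a percent of the WT cells that had no value above 0, a measure chosen after the values were seen, the gain was 50% for Aldoc, 44.2% for Hk1, 40.6% for Pkm, 33.2% for Eno1 and 13.6% for Ndufa4 per the authors' deposited table. The median of all listed genes on that scale was 35.9% per the authors' deposited table. By this measure Pkm was near Hk1, and Ndufa4 remained the lowest member.

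The order of the members by log difference was nearly the order of their WT shares. Per the authors' deposited table the log differences fell from Hk1 through Aldoc, Eno1 and Pkm to Ndufa4, and the WT shares rose from 53.6% for Hk1 to 90.4% for Pkm, with Ndufa4 just under Pkm. Over all listed genes the median log difference was below 0 only at WT shares from 70% on. Of 276 genes with a WT share under 30%, 34.4% were below 0, of 592 genes from 30% to under 40% it was 22.6%, and of 711 genes from 40% to under 50% it was 18.7% per the authors' deposited table. The median log difference was 0.0027 in the lowest of these ranges, 0.018 from 40% to under 50% and 0.021 from 60% to under 70% per the authors' deposited table. Among 124 genes with a WT share from 50% to under 60%, 29.0% were below 0, and among 35 genes from 60% to under 70% it was 34.3% per the authors' deposited table. From 70% on most genes were below 0, with 75.9% of 29 genes from 70% to under 80%, 95% of 20 genes from 80% to under 90% and 100% of 15 genes at 90% or more below 0 per the authors' deposited table. The last of these ranges holds under 20 genes.

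**Figure D2:**
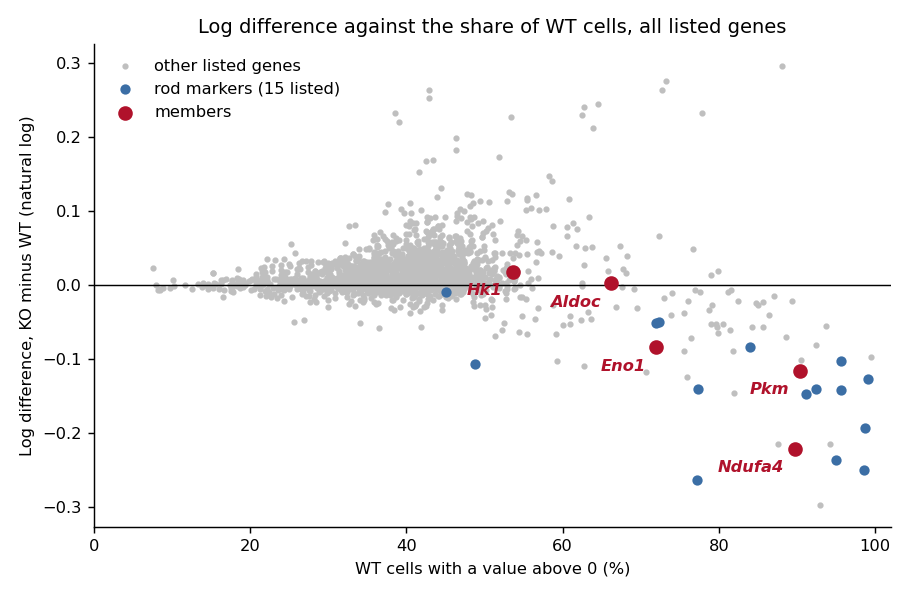
Log difference (KO minus WT, natural log) against the share of WT cells with a value above 0 (%), 1 point per listed gene, with the 15 listed rod markers in blue and the members in red. Hk1 and Aldoc lie in the cloud around 0, and Eno1, Pkm and Ndufa4 lie below 0 at WT shares of 72% or more, where most genes and most rod markers are also below 0.

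Each member was therefore set beside the listed genes whose WT share lay within 5 percentage points of its own. For Hk1 there were 172 such genes with a median log difference of 0.015 per the authors' deposited table, and 90 of them were lower than Hk1. Aldoc had 29 such genes with a median of 0.021 per the authors' deposited table, and 10 of them were lower than Aldoc. Both enzymes of the upper part of the pathway were thus within the bulk of genes of like share.

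Eno1 and Ndufa4 lay near the low end of their genes of like share, and Pkm did not. The 23 genes beside Eno1 had a median of -0.011 per the authors' deposited table, and 3 were lower than Eno1. Beside Pkm stood 17 genes with a median of -0.081 per the authors' deposited table, of which 7 were lower than Pkm and 16 were below 0. The 18 genes beside Ndufa4 had a median of -0.063 per the authors' deposited table, and only 1 was lower than Ndufa4. That gene was Tma7, at -0.30 per the authors' deposited table. Pkm and Ndufa4 are each among the genes of like share of the other.

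**Figure D3:**
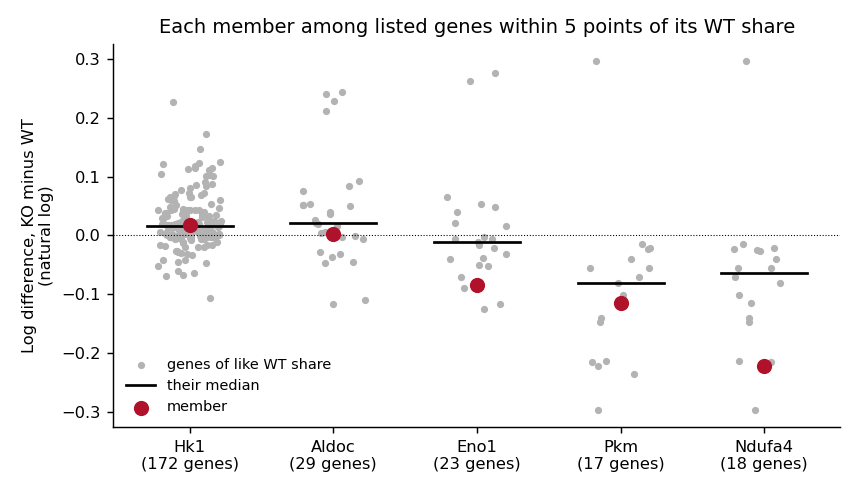
Log differences (KO minus WT, natural log) of the listed genes within 5 percentage points of each member's WT share (grey), their median (black line) and the member (red). Pkm lies near the median of its genes at -0.12 against -0.081, Ndufa4 lies at -0.22 against -0.063 with 1 of 18 genes lower, and Hk1 and Aldoc lie among their genes.

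Rod markers move with the low members. Of 18 rod markers, which include rhodopsin and other outer segment proteins, 15 were listed, and 14 of those were called lower and 0 higher per the authors' deposited table. Their log differences ran from -0.26 to -0.0092 with a median of -0.14, and their WT shares from 45.1% to 99.1%, per the authors' deposited table. Without the rod markers, 4 of 14 genes of like share were lower than Pkm, 1 of 16 was lower than Ndufa4 and 3 of 21 were lower than Eno1 per the authors' deposited table, a comparison chosen after the values were seen. The genes most like each member were found by the distance between percentile ranks of 3 values per gene, the log difference and both shares, over 2 genotypes. Among the nearest to Pkm were Gnat1 and Rcvrn, with log differences of -0.14 and -0.15 per the authors' deposited table. Gnat1, rod transducin, and Rcvrn, recoverin, act in the light response. The part of rod cells in the values of the members was not tested.

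Ndufa4 had Tma7, Gnat1 and Rcvrn as its nearest genes, and Pkm came 5th in that order. Nearest to Eno1 were Vtn, Cnga1 and Pde6b, with log differences of -0.12, -0.14 and -0.049 per the authors' deposited table. Cnga1 and Pde6b encode the rod cyclic nucleotide channel and a rod phosphodiesterase subunit. Hk1 had Prdx1, Epb41l2 and Rims2 beside it, at 0.018, 0.018 and 0.020 per the authors' deposited table. Aldoc had Rdh12, Cd81 and Jun beside it, at 0.0035, 0.0028 and 0.0029 per the authors' deposited table. No member was among the 3 nearest genes of another.

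Markers of most other cell types had more higher than lower calls. So did the whole of the authors' deposited table, with 69.1% of all listed genes called higher and 24.1% lower. More higher than lower calls are thus not particular to a cell type. Of 14 listed Müller glia markers of 16, a list that holds Aldoc itself, 11 were called higher and 3 lower per the authors' deposited table, with a median log difference of 0.0093. Astrocyte markers had 5 higher and 1 lower calls with a median of 0.018 per the authors' deposited table. Cone markers had 11 higher and 0 lower calls with a median of 0.068, bipolar markers 11 and 1 with a median of 0.065, and amacrine markers 7 and 0 with a median of 0.092 per the authors' deposited table. Ganglion cell markers had 3 higher and 2 lower calls, microglia 7 and 4, and vascular cells 4 and 5, with Vtn on the vascular list, per the authors' deposited table. The pigment epithelium had 4 and 1 per the authors' deposited table. Of 6 erythrocyte markers 0 were listed.

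The rest of glycolysis was mostly outside the table. Of 28 glycolytic enzymes 5 were listed per the authors' deposited table, the 4 members and Eno3, the muscle form of enolase. Eno3 was called higher with a log difference of 0.0043 per the authors' deposited table, and 47.2% of WT cells and 66.1% of KO cells had a value above 0. The steps of phosphofructokinase, triose phosphate isomerase, glyceraldehyde phosphate dehydrogenase, phosphoglycerate kinase and lactate dehydrogenase had no listed gene. Of the 10 regulators of glycolysis and the 15 genes of pyruvate entry into mitochondria 0 were listed. The p-values were apparently adjusted over 2000 features, so an unlisted gene was in most cases not tested, which says nothing on whether it changed.

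Genes of the list for glucose and lactate transport, which holds carriers and their partner proteins, went both ways. Basigin (Bsg), which brings lactate carriers to the cell surface, was called lower with a log difference of -0.053 per the authors' deposited table, with a WT share of 79%. The glucose carrier gene Slc2a1 (-0.035) and the lactate carrier gene Slc16a1 (-0.0020) were also called lower per the authors' deposited table. Emb (0.031), a relative of basigin, and Slc16a6 (0.018) were called higher per the authors' deposited table. Of these 14 genes 5 were listed, and their median was -0.0020 against 0.010 for all listed genes of the authors' deposited table.

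Ndufa4 was far below the other listed genes of its complex. Of 18 genes of complex IV and its paralogs, 5 were listed per the authors' deposited table, and the other 4 lay between -0.0043 and 0.012. They were Ndufa4l2 (-0.0043), the paralog of Ndufa4, Cox8b (0.0018), Cox4i2 (0.0064) and Cox6b2 (0.012) per the authors' deposited table, all forms restricted to certain tissues or to low oxygen rather than the common subunits. Their WT shares, from 25.1% to 47.2% per the authors' deposited table, were all far under the 89.7% of Ndufa4. Ndufa4l2 had 44.3% of WT cells and 78.1% of KO cells above 0 per the authors' deposited table, a gain of 33.8 points against 1.4 for Ndufa4. Of 37 other subunits of complex I, 10 genes of complex III and cytochrome c, 18 of complex V and 15 mitochondrially encoded genes, 0 were listed. The values of Ndufa4 therefore do not stand for the chain as a whole.

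Genes of linked pathways were mostly called higher, as were 69.1% of all listed genes of the authors' deposited table, and most log differences were small. Of the list for the tricarboxylic acid cycle and related enzymes, 3 of 23 genes were listed. Idh2 (0.018) and Suclg2 (0.014) were called higher and Me1 (-0.0060) was called lower per the authors' deposited table. Me1 encodes the cytosolic malic enzyme, which is not a step of the cycle itself. Transketolase (Tkt), an enzyme of the pentose phosphate pathway, had a log difference of 0.11 per the authors' deposited table, larger in size than those of Hk1, Aldoc and Eno1 and smaller than those of Pkm and Ndufa4. Of the glycogen genes, Pygl (0.0096) was called higher and Pygm (-0.047), the muscle form of glycogen phosphorylase, was called lower per the authors' deposited table. Gatm (0.023), which makes the precursor of creatine, was the single listed gene of 18 for creatine and adenylate transfer per the authors' deposited table, and was called higher.

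Genes of the oxygen response and of the sodium pump, a main consumer of ATP in the retina, went both ways. Vegfa (0.080) and Hif1a (0.043), a hypoxia-inducible factor subunit, were called higher, and Epas1 (-0.014) and Slc2a1 (-0.035) were called lower per the authors' deposited table, with 4 of 23 genes listed. Of 10 sodium pump genes 7 were listed, 5 of them called higher and 2 lower per the authors' deposited table. Those higher included Atp1b1 (0.092), Atp1b3 (0.052), Fxyd1 (0.013) and Fxyd6 (0.010) per the authors' deposited table. Atp1b2 (-0.064) was among those called lower per the authors' deposited table.

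**Figure D4:**
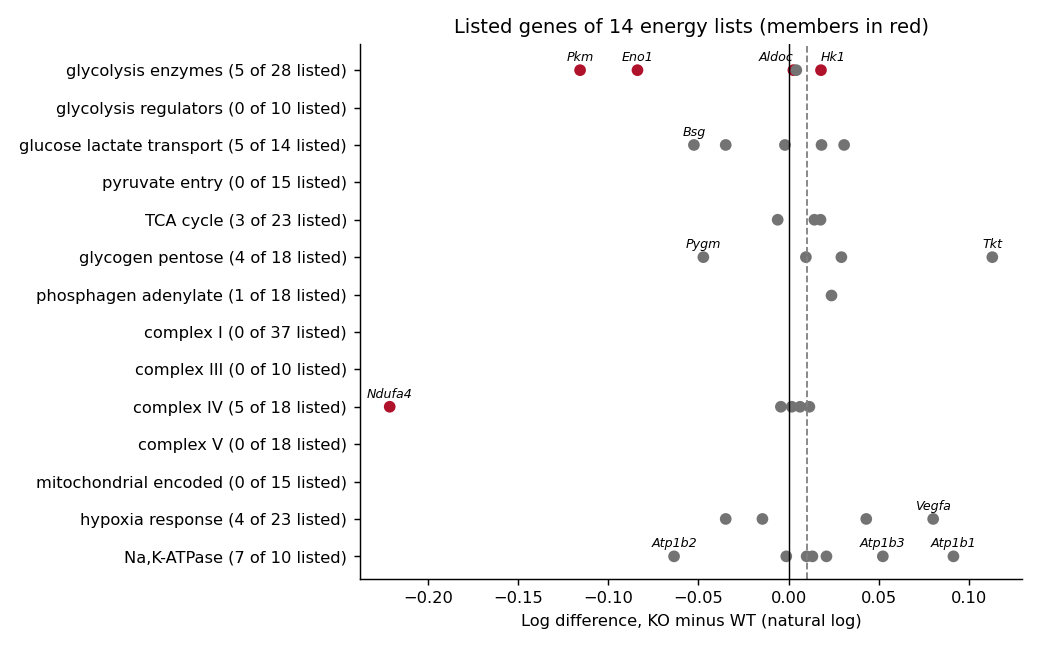
Log differences (KO minus WT, natural log) of the listed genes of 14 energy lists, members in red, with 0 as a solid and the median of all listed genes as a dashed line. The labels give how many genes of each list were listed. Ndufa4 (-0.22), Pkm (-0.12) and Eno1 (-0.084) lie to the left of every other gene shown, whose lowest is Atp1b2 at -0.064.

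Over all 14 lists, 33 of 254 energy genes were listed, and 221 were not. The 28 that are not members had 19 higher and 9 lower calls per the authors' deposited table, beside 69.1% and 24.1% of all listed genes. Their median log difference was 0.011 against 0.010 for all listed genes. They ran from -0.064 to 0.11 per the authors' deposited table, and only Bsg of them had a WT share of at least 70%. All 28 had values above 0 in more of the KO cells per the authors' deposited table.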

How the data were processed

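Libraries were grouped by their genotype label (3 WT, 5 KO). Per the submitters' processing notes, the authors used GRCm38 and the tools Cell Ranger, DESeq2 and Seurat 3.1.4, without stated roles. The authors deposited a log difference per gene, read as a natural log by the convention of that Seurat version, since the header gives no base. The deposited shares of cells above 0 are fractions, printed as percent. The deposited adjusted p-value was 2000 times the raw p-value in all 1543 genes for which this could be formed, and raw p-values reached 0.00938 at most. The test, the unit of replication, the filters on cells and doublets, the integration and the depth are not stated in the sources used here. If cells were the replicates, the p-values leave out the variation from library to library.

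From the table, calls (adjusted p under 0.05), ranks, medians, and comparisons with genes of like WT share (within 5 points) were computed with pandas 2.3.3. No test was run. Named genes were the members, listed genes of 14 energy lists (the 6 of largest size in a longer list), the 3 nearest genes of each member and Abca1. Leading genes of 11 marker lists also fell under the rule, and these lists are given by counts. Members and lists were chosen with earlier results of these data known. Of the 254 energy symbols, 252 were found in GENCODE M21, which gave positions. The 3′ ends were searched against all GENCODE M21 transcripts with BLAST 2.17.0. Calculations were checked on simulated data. Some genes that the rule selects are left out of the text.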

Additional observations from a re-analysis of the deposited data

How the results depend on the processing

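Leaving out a library and permuting labels could not be done without values per library. No paired analysis was possible because the table holds no values per library. All 5 members stayed called at an adjusted p under 0.001, as did 90.1% of all listed genes. Every listed gene (100%) had a raw p under 0.01, so that setting could not drop a member. Against the median of all listed genes 1 member was higher in place of 2, since Aldoc reversed to -0.0074. The other members stood at 0.0080 (Hk1), -0.094 (Eno1), -0.13 (Pkm) and -0.23 (Ndufa4). Against genes of like WT share Aldoc reversed to -0.019, and the others stood at 0.0026 (Hk1), -0.073 (Eno1), -0.034 (Pkm) and -0.16 (Ndufa4). The cause was not tested. Read as log2, the values only change scale. Of 25 percentiles of a member among genes of like share under other matching or without rod markers, 21 stayed within the 95% Wilson interval of the first. These intervals rest on 17 to 29 genes for all members but Hk1, and the gene sets overlap, so staying inside shows little. Aldoc had 0 rod markers among its genes, so leaving them out could not change its percentile. The percentile of the gain in share of Hk1 moved from 47.7 to 39.1 with a window of 10 points and to 17.5 with matching on the KO share, and the latter moved Eno1 from 34.8 to 13.5 and Pkm from 70.6 to 44.1. As a percent of WT cells without a value above 0, the gains were 44.2% (Hk1), 50% (Aldoc), 33.2% (Eno1), 40.6% (Pkm) and 13.6% (Ndufa4). At the stricter threshold, 2 of 25 lists had another count of calls, each within 1.5 times. Depth is unknown.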

Other observations

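The size of the log difference and the p-value ordered the members differently. Hk1 had a raw p of 1.06e-30 and Eno1 a raw p of 2.20e-21 per the authors' deposited table, while the log difference was 0.018 for Hk1 and -0.084 for Eno1. Aldoc, at 0.0027 with a gain in share of 16.9 points, passed as well per the authors' deposited table. A p-value smaller than that of Hk1 was listed for 65.2% of all genes of the authors' deposited table, of Aldoc for 80.3%, of Eno1 for 72.5%, of Pkm for 51.6% and of Ndufa4 for 19.5%.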
